A study of Mus musculus with 22 samples.

Results

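Chaetocin and IOX1 were compared directly in mouse E14 embryonic stem cells, with 2 RNA-seq libraries for each compound, 4 of the 22 libraries of the series. The 4 libraries were chosen by their treatment labels, Chaetocin or IOX1, and the replicate number in the sample titles (1 or 2) entered the comparison as a block. The other 18 libraries formed 9 groups of 2 libraries, those labelled NC, Bromosporine, CPTH2, DZNep, Garcinol, MS023, OICR, UNC0379 and Valproate. They gave a common estimate of the spread and the reference for genes that Chaetocin and IOX1 shifted the same way. All 22 libraries came from the same cell line, and no genetic change was labelled. The label NC names no compound, and doses, treatment times and the solvent were not given in the sources used here. Nothing said that libraries of a group came from separate cultures, so the p-values measure the spread between these libraries, which may be technical.

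Chaetocin is a fungal metabolite that inhibits histone lysine methyltransferases, among them the SUV39H1 type that methylates histone H3 at lysine 9. IOX1 inhibits oxygenases that use 2-oxoglutarate and iron, a family that holds the JmjC histone demethylases, the prolyl hydroxylases that mark hypoxia-inducible factor for destruction, and collagen hydroxylases. One compound therefore acts on enzymes that add methyl groups and the other on enzymes that remove them, and neither is known to act on histones alone. NRF2 (gene Nfe2l2) is the transcription factor that switches on antioxidant and detoxifying enzymes when electrophiles or oxidants modify its inhibitor KEAP1, and it binds the antioxidant response element.

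The deposited values were read counts per gene after full-quantile normalization, rounded to whole numbers, and are called normalized read counts here. They give no sequencing depth. The 22 libraries had almost the same total (38403767 to 38419709) and the same median (409), because this normalization gives each library the same distribution. Genes listed at 0 numbered 1347 and 1297 in the Chaetocin libraries and 1411 and 1306 in the IOX1 libraries, against 1380 and 1336 in the NC libraries. Embryonic stem cell markers were high in all 4 libraries. Pou5f1, a core pluripotency factor, was at 28606 in both Chaetocin libraries and at 32054 and 28606 in the IOX1 libraries. Nanog was at 35221 and 59405 with Chaetocin and at 41831 and 53841 with IOX1, so for both factors the groups met or overlapped.

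Few genes separated the compounds. Of 17275 genes tested with limma on log2(normalized read count + 1), 50 (0.289%) passed a Benjamini-Hochberg adjusted p under 0.05 and a fold change over 2, which is what called means below. In 33 of them (0.191% of the genes tested) the value was higher with Chaetocin and in 17 (0.0984%) it was higher with IOX1. Of the 50, 43 were protein coding and 2 were listed at 0 in both IOX1 libraries. In the other 48 the absolute log2 difference ran from 1.00 to 4.87 with a median of 1.32. In 48 of the 50 the Chaetocin and IOX1 libraries did not overlap. Over all genes tested 27.5% did not overlap, 2198 with both Chaetocin libraries above and 2553 with both IOX1 libraries above. At an unadjusted p under 0.05 there were 2447 genes.

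Most genes lay close to 0. The median log2 difference, Chaetocin minus IOX1, was -0.02 over all genes tested, with quartiles of -0.18 and 0.16. Across genes, the difference between the libraries numbered 1 had a Pearson correlation of 0.0365 with that between the libraries numbered 2. This value is a description across 17275 genes, which are not independent replicates. The profile of Chaetocin 1 was closer to IOX1 1 (Pearson r = 0.949 across genes) than to Chaetocin 2 (0.931), and Chaetocin 2 was closer to IOX1 2 (0.939). The libraries thus grouped by replicate number before compound.

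The number of calls depended on that block and on single libraries. Without the replicate number in the model 10 genes were called, all of them among the 50. They were Cbr3, Nqo1, Ptgr1, Mbp, Gm10131, Pkd2l1, Cmklr1, Nckap1l, Gm37470 and a transcript named only by its clone (an RP24 clone). All others of the 50 lost the call without the block, also where the text below gives only libraries left out. Leaving out Chaetocin 1 gave 29 calls, leaving out Chaetocin 2 gave 20, leaving out IOX1 1 gave 17 and leaving out IOX1 2 gave 47. Of these, 11, 9, 9 and 15 were among the 50. The 4 genes called without each of the 4 libraries in turn were Cbr3, Pkd2l1, Gm37470 and the RP24 clone transcript. With only the 4 libraries in the model, which leaves 1 residual degree of freedom, limma called 0 genes, with 2665 at an unadjusted p under 0.05.

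**Figure D1:**
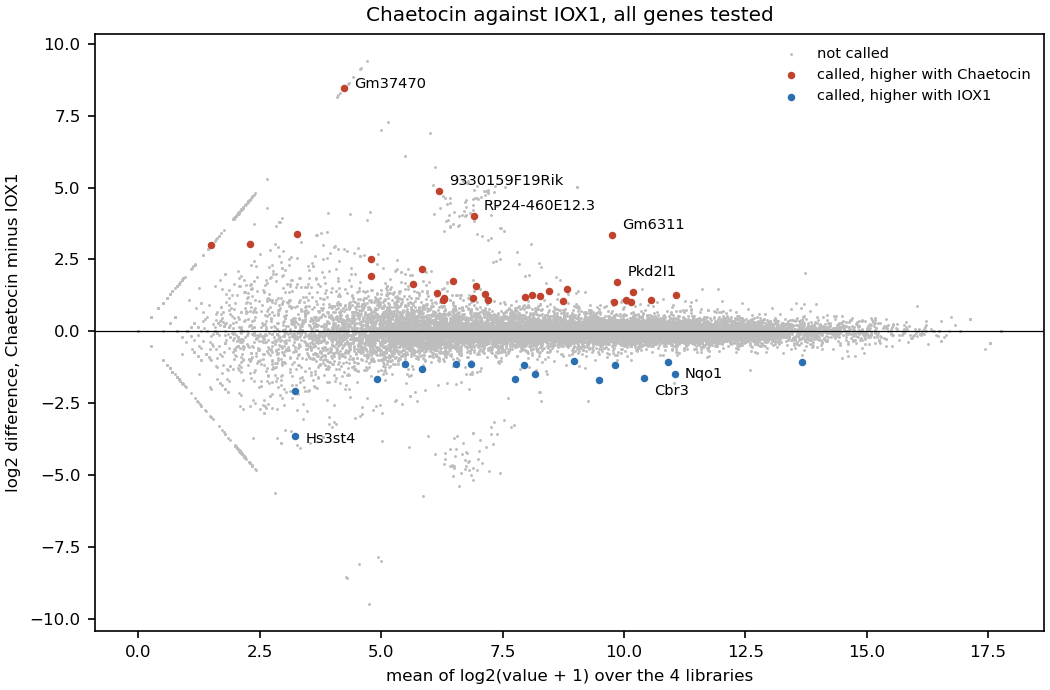
Log2 difference, Chaetocin minus IOX1, of each of the 17275 genes tested (vertical axis) against the mean of log2(value + 1) over the 4 libraries (horizontal axis), with the 33 genes called higher with Chaetocin in red and the 17 called higher with IOX1 in blue. The cloud narrows to the right around 0, and Cbr3, Nqo1, Pkd2l1 and Gm6311 stand outside it at high values. Gm37470, 9330159F19Rik and the RP24 clone transcript have the largest differences among the called genes and lie at lower mean values. Gm6311, a processed pseudogene at 3.36, read 2084 and 3675 with Chaetocin and 178 and 407 with IOX1. Of its 31-base words 88.4% occur in other genes. Gm37470 was listed at 0 in both IOX1 libraries, so its plotted height depends on the value of 1 that was added.

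The genes higher with IOX1 at substantial levels included 3 reductases. Cbr3, which encodes a carbonyl reductase, read 844 and 704 with Chaetocin, 2742 and 2101 with IOX1, and 659 and 695 in NC. The IOX1 libraries were well above the other 4, and the Chaetocin libraries were near NC. The group means were 774 ± 99.0 (SD, n = 2) with Chaetocin and 2422 ± 453 (SD, n = 2) with IOX1. The log2 difference was -1.64 ± 0.18 (SE), with a limma adjusted p of 0.0022. It was -1.70 in the libraries numbered 1 and -1.58 in those numbered 2. Cbr3 lies on chromosome 16 from 93683215 to 93690990 on the plus strand of GRCm38 (GENCODE M21). It kept its call in 9 of 11 alternatives and lost it in the models with only 4 or 6 libraries.

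Nqo1, which encodes a quinone reductase and is a classic NRF2 target, read 1246 and 1262 with Chaetocin, 3870 and 3240 with IOX1, and 728 and 872 in NC. Both IOX1 values lay above those of the other 20 libraries, whose highest reading was 2534 among the 18 libraries of the 9 other groups. The log2 difference was -1.50 ± 0.23 (SE, limma adjusted p = 0.013). The call was lost without Chaetocin 1, without Chaetocin 2 and without IOX1 1, with differences from -1.72 to -1.28 over the alternatives. Ptgr1, which encodes a reductase of prostaglandin and leukotriene metabolism, read 1303 and 1367 with Chaetocin, 2991 and 2608 with IOX1, and 855 and 918 in NC. Its log2 difference was -1.06 ± 0.15 (SE, limma adjusted p = 0.0097), and its call was lost without Chaetocin 2 and without IOX1 1. For both genes the Chaetocin libraries read above the NC libraries, by log2 differences of 0.65 for Nqo1 (limma adjusted p = 0.14) and 0.59 for Ptgr1 (limma adjusted p = 0.083), which were not called.

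Some other compounds also had high readings of these genes. Cbr3 read 3095 and 3189 with DZNep and 1918 and 1478 with MS023. Nqo1 read 2534 and 2357 with MS023, and Ptgr1 read 3870 and 3644 with MS023 and 2969 and 2467 with DZNep. The DZNep libraries exceeded those of IOX1 for Cbr3, and for Ptgr1 the MS023 libraries exceeded them and the DZNep libraries overlapped them.

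The wider NRF2 antioxidant target list had 34 members tested. Of these, 2 were called higher with IOX1 (Cbr3 and Nqo1), beside 0.0984% of all genes tested, and 0 were called higher with Chaetocin, beside 0.191%. The median log2 difference of the list was -0.28, beside -0.02 for all genes tested, and 29 of 34 members had a negative difference. Both IOX1 libraries lay above both Chaetocin libraries in 16 of the 34 members, and the opposite held in 2. Over all genes tested the same held in 14.8% and 12.7%. The sign of the list median stayed the same under all 11 alternatives, and Ptgr1 is not in the list. Against the mean of the 9 other groups, 4 members were called higher with IOX1 (0.423% of all genes tested were) and 0 with Chaetocin (0.654% of all genes tested were). The 4 were Cbr3, Nqo1, Srxn1, a sulfiredoxin, and Osgin1. Srxn1 read 1862 and 2727 with IOX1 and 2924 and 3721 with MS023. Osgin1 read 47 and 37 with IOX1 and 160 and 186 with MS023, so MS023 exceeded IOX1 in both genes.

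Enzymes of glutathione synthesis were on the same side. Gclm, the modifier subunit of the enzyme that makes the first bond of glutathione, read 2030 and 2789 with Chaetocin, 3646 and 4244 with IOX1, and 2182 and 2869 in NC. Its log2 difference was -0.73 ± 0.12 (SE), with a limma adjusted p of 0.018 but a fold change under 2, so it was not called. Gclc, the catalytic subunit, read 1336 and 1363 with Chaetocin and 1993 and 2101 with IOX1, a log2 difference of -0.60 ± 0.14 (SE) that did not pass (limma adjusted p = 0.078). The MS023 libraries overlapped those of IOX1, at 3432 and 4025 for Gclm and 1975 and 2086 for Gclc. Ftl1, a ferritin light chain, read 821 and 780 with Chaetocin and 1518 and 1379 with IOX1, and its difference of -0.85 ± 0.20 (SE) did not pass either (limma adjusted p = 0.083). Of its 31-base words 94.9% occur in other genes, so its reads cannot be assigned to it with certainty.

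Other NRF2 targets were not called. Txnrd1, a thioredoxin reductase, read 10812 and 10216 with Chaetocin and 14424 and 13845 with IOX1, a log2 difference of -0.43 (limma adjusted p = 0.22). Hmox1, which encodes heme oxygenase, read 1464 and 1673 with Chaetocin and 1644 and 1638 with IOX1. Slc7a11, the cystine transporter subunit, read 99 and 117 against 137 and 109. For Txnrd1 both IOX1 libraries lay above both Chaetocin libraries. In the last 2 genes the groups overlapped, and the log2 differences of -0.07 and -0.18 were smaller than their SE of 0.13 and 0.22. The list of thioredoxin and glutathione genes had 0 of 31 members called, beside 0.289% of all genes tested, and a median of -0.12.

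Promoters were searched for the core of the antioxidant response element, TGACNNNGC on either strand, in the RefSeq windows of 250 bases before to 50 after each start site (GRCm38.p6). The core was present for 10 of the 27 NRF2 list genes with an entry (37.0%), for 14.0% of 27025 genes, and for 0 of 10 genes called higher with IOX1 that had an entry. Among genes called higher with Chaetocin it was present for 4 of 22 with an entry (18.2%). A match is a description of letters and not a binding site. The stretches around the core upstream of 3 list members with IOX1 readings above both Chaetocin readings are given 5′ to 3′ on the plus strand, which is the strand of these genes, with the core in capitals. They lie at chr3:122245378-122245476, chr4:116685421-116685519 and chr10:82859069-82859167, and the core starts 134, 133 and 92 bases before the start site of the window. For Txnrd1, the windows at other annotated start sites held no core.
Gclm: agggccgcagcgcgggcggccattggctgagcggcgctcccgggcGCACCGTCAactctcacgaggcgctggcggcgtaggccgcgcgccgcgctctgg
Prdx1: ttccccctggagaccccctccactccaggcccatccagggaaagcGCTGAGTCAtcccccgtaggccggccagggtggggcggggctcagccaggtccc
Txnrd1: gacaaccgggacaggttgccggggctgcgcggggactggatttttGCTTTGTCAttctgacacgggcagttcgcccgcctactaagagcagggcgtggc
Prdx1, a peroxiredoxin that removes peroxides, read 39271 in both Chaetocin libraries and 53954 and 59516 with IOX1, and its log2 difference of -0.53 was not called (limma adjusted p = 0.14). All 3 cores are on the minus strand, so they read in the capitals as the reverse complement of the searched letters.

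**Figure D2:**
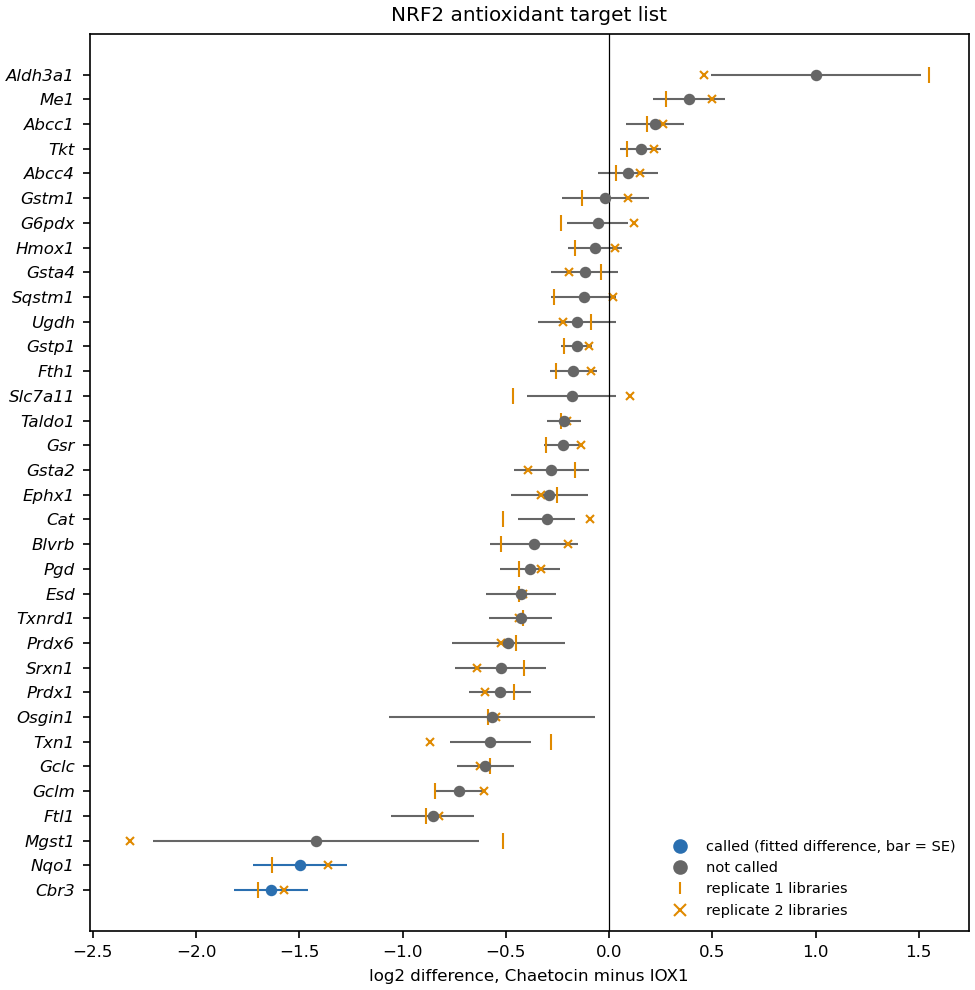
Log2 difference, Chaetocin minus IOX1, of the 34 tested members of the NRF2 antioxidant target list, with the fitted value and its SE (points and bars) and the differences within the libraries numbered 1 (ticks) and 2 (crosses). Of the 34 members 29 lie left of 0, and the 2 called members, Cbr3 and Nqo1, lie at -1.64 and -1.50.

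Among the other genes higher with IOX1, the IOX1 libraries were often near NC and the Chaetocin libraries below it. Mbp, which encodes a myelin protein, read 148 and 199 with Chaetocin, 435 and 525 with IOX1, and 442 and 262 in NC (log2 difference -1.47 ± 0.21 SE, limma adjusted p = 0.010). Its call was lost without Chaetocin 1 and without IOX1 2. Hdgfrp3, a growth factor related gene that GENCODE names Hdgfl3, read 164 in both Chaetocin libraries, 301 and 448 with IOX1, and 358 and 334 in NC. Its log2 difference was -1.16 ± 0.18 (SE, limma adjusted p = 0.014), and its call was lost without Chaetocin 2 and without IOX1 2. Against NC, Hdgfrp3 fell with Chaetocin, and IOX1 minus NC was not called. Penk, which encodes the enkephalin precursor, read 61 and 63 with Chaetocin, 135 and 140 with IOX1, and 113 and 123 in NC. Rhox13, an X-linked homeobox gene, read 62 and 94 with Chaetocin, 134 and 214 with IOX1, and 135 and 166 in NC. For Penk and Rhox13 the log2 difference was -1.14 in both, and each lost its call whenever any of the 4 libraries was left out.

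Gm13889 and Gm10131 completed the 9 protein-coding genes higher with IOX1 that met the naming rule. Gm13889 read 299 and 400 with Chaetocin and 612 and 841 with IOX1, with NC at 696 and 531, and lost its call without any 1 of the 4 libraries. Gm10131 read 381 and 422 with Chaetocin and 1032 and 1619 with IOX1, with NC at 510 and 414, and its call was lost without Chaetocin 1, Chaetocin 2 or IOX1 2. Of its exonic sequence, 95.5% of 31-base words occur in other genes, so its reads cannot be assigned to it with certainty. The mitochondrial ribosomal RNA mt-Rnr1, whose abundance depends on how completely mRNA is enriched, was also called, at 7348 and 10793 with Chaetocin, 14400 and 24739 with IOX1 and 14995 and 24739 in NC.

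Among the genes higher with Chaetocin, Pkd2l1 had the smallest adjusted p at a high level. It encodes a cation channel of the polycystin family, and it read 1574 and 1794 with Chaetocin, 423 and 633 with IOX1, and 1448 and 1395 in NC. The Chaetocin libraries lay near NC, and both IOX1 libraries lay below all 18 libraries of the 9 other groups, whose lowest reading was 745. The group means were 1684 ± 156 (SD, n = 2) and 528 ± 148 (SD, n = 2), and the log2 difference was 1.70 ± 0.15 (SE, limma adjusted p = 3.1e-04). The call held in 9 of 11 alternatives, again with the exception of the models with 4 or 6 libraries. Pkd2l1 lies on chromosome 19 from 44147637 to 44192442 on the minus strand of GRCm38.

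Crxos, a homeobox gene expressed in embryonic stem cells, read 3897 and 2897 with Chaetocin, 1486 and 1312 with IOX1, and 4301 and 3704 in NC, a log2 difference of 1.27 ± 0.20 (SE, limma adjusted p = 0.018). Both IOX1 libraries lay below the other 4, and the call was lost without any 1 of the 4 libraries compared. The Bromosporine libraries read lower still, at 1078 and 805.

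Cmklr1, the chemerin receptor, read 493 and 651 with Chaetocin, 190 and 240 with IOX1, and 603 and 542 in NC. The log2 difference of 1.40 ± 0.19 (SE, limma adjusted p = 0.0087) lost its call without Chaetocin 2 and without IOX1 1. Lcp1, which encodes the actin-bundling protein L-plastin, read 246 and 196 with Chaetocin, 106 and 74 with IOX1 and 360 and 206 in NC. The compounds differed by 1.30 ± 0.17 (SE, limma adjusted p = 0.0087) on the log2 scale, and the call was lost without Chaetocin 2. Sash3, a lymphocyte adaptor, read 1006 and 566 with Chaetocin and 291 and 257 with IOX1, with NC at 670 and 420, and lost its call without Chaetocin 1 and without IOX1 1. Thpo, which encodes thrombopoietin, read 142 and 86 against 53 and 36, with NC at 71 and 57. Nckap1l, which encodes an actin regulator of blood cells and falls outside the naming rule's 12 largest differences, read 1525 and 1547 against 603 and 881, with NC at 1657 and 1486. It was named after its values were seen, because it was also called without the replicate block. Low readings of several of these genes were not particular to IOX1. Bromosporine read 85 and 74 for Lcp1, 140 and 142 for Sash3 and 799 and 846 for Nckap1l. DZNep read 143 and 161 for Cmklr1.

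Of the remaining genes named by the rule, Tdrd12, a Tudor domain gene of the piRNA pathway, read 2408 and 1458 with Chaetocin and 886 and 589 with IOX1, with NC at 1090 and 1433. With Bromosporine, Tdrd12 read 607 and 504. Pmel, which encodes the melanosome fibril protein, read 584 and 307 against 214 and 147, with NC at 177 and 216, so that here the IOX1 libraries were the ones near NC. 1700029P11Rik read 149 and 179 against 29 and 77, with NC at 122 and 180. The log2 differences of these 3 genes were 1.37, 1.25 and 1.76. Thpo, Tdrd12 and Pmel lost their calls without any 1 of the 4 libraries, and 1700029P11Rik lost its call without Chaetocin 1, Chaetocin 2 or IOX1 1.

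**Figure D3:**
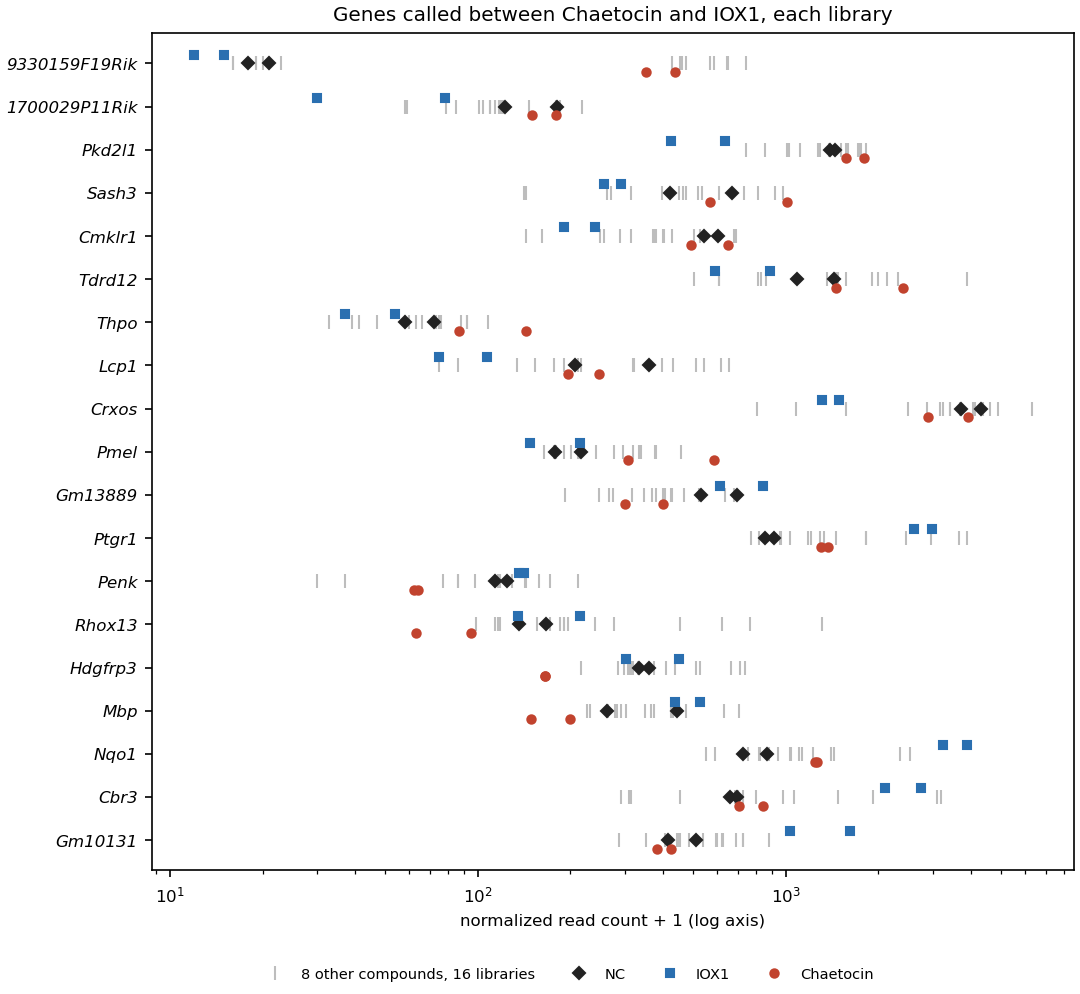
Normalized read count plus 1 (horizontal log axis) of 19 genes named for the direct comparison, 10 higher with Chaetocin (top) and 9 higher with IOX1 (bottom), in each library of Chaetocin (red circles), IOX1 (blue squares) and NC (black diamonds), with the 16 libraries of the 8 other compounds as grey ticks. In each row the circles and squares do not overlap. For Cbr3 and Nqo1 the squares lie right of the diamonds, and for Pkd2l1 and Crxos they lie left of them.

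Among the called genes, the 3 with the largest fitted differences read either low or high across the libraries, with a wide gap between. Gm37470 was listed at 249 and 503 in the Chaetocin libraries and at 0 in the other 20, so no fold change is given. The RP24 clone transcript read 503 and 460 with Chaetocin and 16 to 52 in the other 20 libraries, a log2 difference of 4.02 ± 0.27 (SE, limma adjusted p = 3.6e-05). The protein-coding 9330159F19Rik read 351 and 436 with Chaetocin and 11 and 14 with IOX1. It was below 23 in 11 libraries and at 351 or more in the other 11, and NC was among the low ones at 17 and 20. The UNC0379 libraries fell on both sides, at 428 and 19. Such gaps were frequent in the table. Of the genes tested, 769 had a gap of more than 3 on the log2 scale between neighbouring values with a highest value of at least 100, and in 749 of them both libraries of at least 1 group lay on opposite sides. The Chaetocin libraries were split in this way in 251 genes and the IOX1 libraries in 251. The part of the counting step in these splits was not tested.

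No transcript of the presumed target enzymes was called between the compounds. Of 24 genes for H3K9 methyltransferases and their partners, 0 were called, beside 0.289% of all genes tested. Their median log2 difference was -0.05. In a list of this size, 0 calls cannot be told apart from that share. Suv39h1 read 804 and 783 with Chaetocin and 973 and 808 with IOX1, a log2 difference of -0.16 ± 0.11 (SE, limma adjusted p = 0.58). Atf7ip, which stabilizes the H3K9 methyltransferase SETDB1, read 2550 and 4879 with Chaetocin, 1288 and 2289 with IOX1, and 5367 and 4745 in NC. Both Chaetocin libraries lay above both IOX1 libraries, but the log2 difference of 1.04 ± 0.24 (SE) did not pass (limma adjusted p = 0.073). Against the 9 other groups Atf7ip was called lower with IOX1 (log2 change -1.20, limma adjusted p = 0.0027). It was the 1 of 24 members so called, beside 1.07% of all genes tested. Against NC alone it was also called lower with IOX1 (-1.55, limma adjusted p = 0.010), and it was not called with Chaetocin in either comparison.

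Of 29 JmjC demethylase genes, 0 were called, beside 0.289% of all genes tested, with a median of 0.03. Kdm4c, a demethylase of H3K9, read 5435 and 5688 with Chaetocin and 5462 and 5550 with IOX1, a log2 difference of 0.01 ± 0.08 (SE). Of 32 other 2-oxoglutarate oxygenases, 0 were called, beside the same 0.289%, with a median of -0.02. Phyh, the oxygenase that starts the breakdown of phytanic acid in peroxisomes, was the member nearest to a call. It read 1714 and 1543 with Chaetocin, 929 and 849 with IOX1, and 1458 and 1519 in NC. Both IOX1 libraries lay below the other 4, and the log2 difference of 0.87 ± 0.08 (SE) passed the adjusted p (limma, 6.3e-04) but not the fold change. The Bromosporine libraries were as low, at 900 and 853.

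Targets of hypoxia-inducible factor and glycolytic enzymes had a positive median difference, towards higher values with Chaetocin than with IOX1. Of 41 tested members, 1 was called, beside 0.289% of all genes tested, and the median log2 difference was 0.25 beside -0.02 for all genes, with 29 members positive and 11 negative. The Chaetocin libraries lay above the IOX1 libraries in 10 of the 41 members and below them in 2, beside 12.7% and 14.8% of all genes tested. Against the 9 other groups the list median was -0.06 with Chaetocin and -0.24 with IOX1, beside -0.02 and -0.0044 for all genes tested. The called gene, Bhlhe40, is a repressor induced by hypoxia, and read 2813 and 1723 with Chaetocin, 1391 and 753 with IOX1, and 3446 and 1464 in NC. Its log2 difference was 1.10 ± 0.21 (SE, limma adjusted p = 0.035), and the call was lost without any 1 of the 4 libraries.

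Several glycolytic enzymes had the same order without a call. Aldoc, Pfkl and Pkm were not picked by the naming rule and were named after their values were seen. Of the 41 tested list members, 11 had a negative difference. Aldoc, an aldolase, read 755 and 448 with Chaetocin, 409 and 176 with IOX1, and 640 and 336 in NC (log2 difference 1.11 ± 0.24 SE, limma adjusted p = 0.059). Pfkl, a phosphofructokinase subunit, read 3402 and 5065 with Chaetocin, 1613 and 2386 with IOX1, and 5866 and 4020 in NC (1.08 ± 0.28 SE, limma adjusted p = 0.11). Pkm, a pyruvate kinase, read 67576 and 123367 with Chaetocin, 36561 and 67576 with IOX1, and 123367 in both NC libraries (0.88 ± 0.24 SE, limma adjusted p = 0.13). In these 3 genes the IOX1 library read below the NC library within each replicate number. Vegfa and Egln3, textbook targets of hypoxia-inducible factor, had log2 differences of 0.04 ± 0.23 and 0.28 ± 0.23 (SE), and neither passed the test (limma adjusted p = 0.97 and 0.65).

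No other list had a called member between the compounds, where 0.289% of all genes tested were called. The p53 target list had a median of -0.21, with 24 of 30 members negative, and Gadd45a read 627 and 305 with Chaetocin and 1016 and 628 with IOX1 (log2 difference -0.87, limma adjusted p = 0.082). Ribosome biogenesis genes had a median of -0.11, with 25 of 32 negative. Genes for collagens, collagen maturation and basement membrane had a median of 0.19, with Lama1, a laminin chain, at 10049 and 6045 against 6341 and 3312 (log2 difference 0.77, limma adjusted p = 0.010, fold change under 2). Serpinh1, the collagen chaperone, had a log2 difference of 0.32 ± 0.26 (SE). Lysosome and autophagy genes had a median of 0.15, early lineage markers one of -0.19, and zinc and iron genes one of -0.14. The 6 primitive endoderm markers tested had a median of -0.28, as low as the NRF2 list, and the 5 mesoderm markers tested one of -0.26. Among imprinted genes, Plagl1, a zinc finger factor, read 3403 and 3445 with Chaetocin, 2115 and 2037 with IOX1 and 1664 and 1663 in NC, and passed the adjusted p (limma, 0.034) but not the fold change.

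Genes of the 2-cell stage had the lowest list median, -0.49, with 0 of 24 members called, beside 0.289% of all genes tested. Most of them read under 100. Zscan4c, a marker of the 2-cell state, was listed at 0 and 28 with Chaetocin, at 30 and 57 with IOX1, and at 64 and 66 in NC, and did not pass (limma adjusted p = 0.20), and 91.5% of its 31-base words occur in other genes. Dazl, a germ cell gene, read 3888 and 2858 with Chaetocin, 4769 and 4123 with IOX1, and 6257 and 3591 in NC. Its log2 difference between the compounds was -0.41 ± 0.22 (SE). The metallothionein genes Mt1 and Mt2 differed by -0.07 and -0.55 and the transferrin receptor gene Tfrc by -0.42, with adjusted p of 0.39 or more by limma. The immediate early, interferon, heat shock, endoplasmic reticulum chaperone, integrated stress response, cholesterol, histone, pluripotency, replication and germline lists had medians between -0.11 and 0.05.

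**Figure D4:**
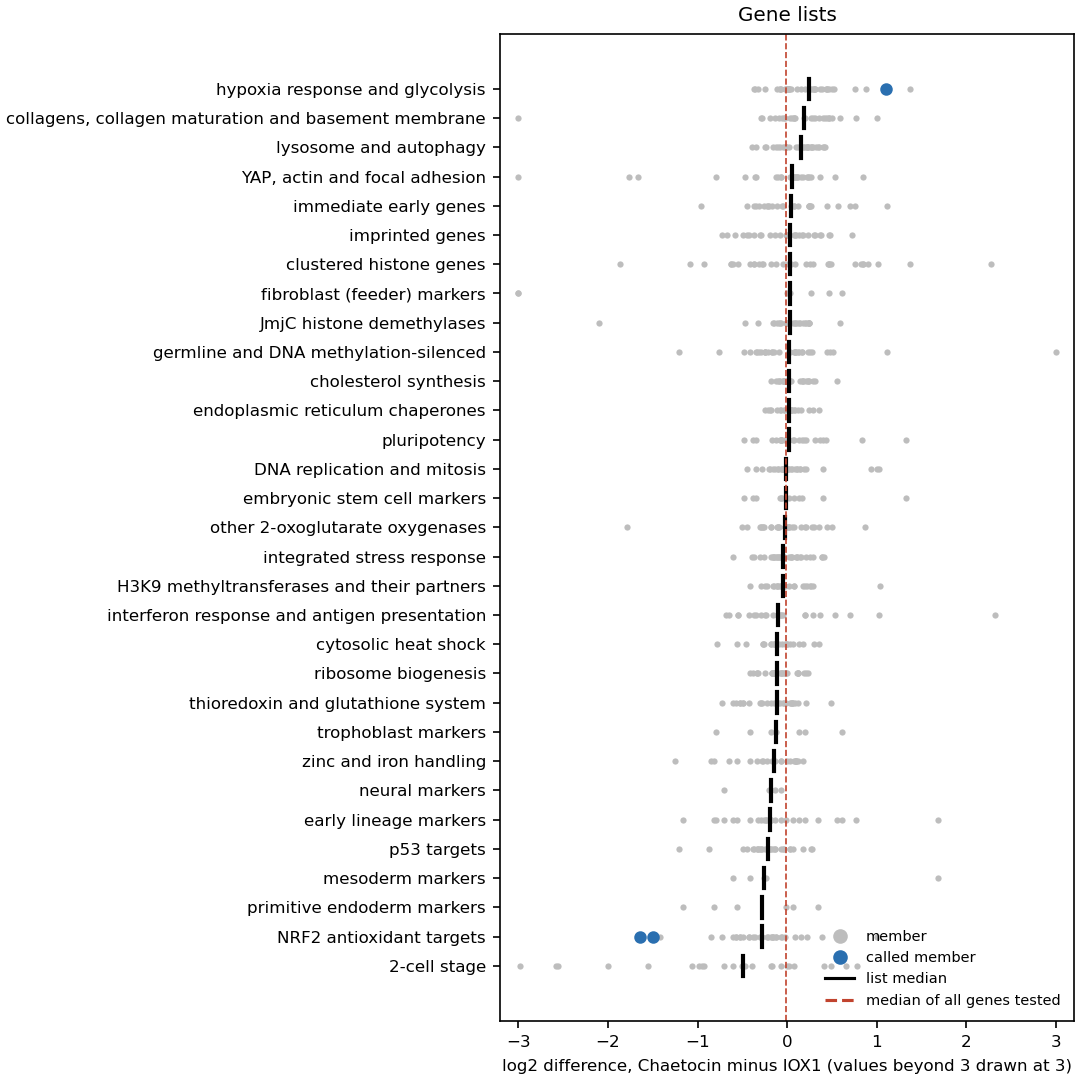
Log2 difference, Chaetocin minus IOX1, of the tested members of the 31 gene lists (grey points), with called members in blue, list medians as black bars and the median of all genes tested as a dashed line at -0.02. The list of 2-cell genes (-0.49) lies furthest to the left, followed by NRF2 targets (-0.28), primitive endoderm markers (-0.28) and mesoderm markers (-0.26). The hypoxia list (0.25) lies furthest to the right, and 3 members in all are called.

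Genes that both compounds shifted the same way were sought against the mean of the 9 other groups. With Chaetocin 113 genes were called higher (0.654%) and 95 lower (0.55%), and with IOX1 73 were called higher (0.423%) and 185 lower (1.07%). Both calls had the same direction in 36 genes, 13 higher (0.0753%) and 23 lower (0.133%), and no gene was called in opposite directions. The comparisons share their 18 reference libraries, so this count is what the rule fixes and carries no test. Without the replicate block it was 4, namely Tns1, Dnajc22, Rhox5 and 1700013H16Rik. It was 17 without Chaetocin 1, 7 without Chaetocin 2, 7 without IOX1 1 and 20 without IOX1 2.

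The choice of reference mattered as much. With NC alone as the reference 10 genes were called with both compounds, and Tns1 and Gm45105 were the 2 of them among the 36. With DZNep, Valproate and Bromosporine left out of the reference there were 5, namely Tns1, Gm45105, Pax6, Col1a1 and Vmn2r9. In 7 of the 13 higher genes and 16 of the 23 lower genes all 4 libraries lay beyond both NC libraries. All 4 lay beyond all 18 reference libraries in 0 of the higher and 2 of the lower genes, Tns1 and Psd4. The genes were picked against these 18 libraries, NC among them, and such counts were not made over all genes tested. These counts therefore only describe the picked genes.

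Tns1, which encodes tensin 1, a protein that ties actin to focal adhesions, kept its call with both compounds under all 11 alternatives. It read 338 and 384 with Chaetocin, 309 and 399 with IOX1, and 1251 and 880 in NC. The 18 reference libraries ran from 526 to 1870 with a median of 1032, so the 4 libraries lay below all of them. The nearest were the Garcinol libraries at 526 and 551. Against the 9 groups the log2 change was -1.48 ± 0.16 (SE, limma adjusted p = 6.0e-04) with Chaetocin and -1.52 ± 0.16 (SE, limma adjusted p = 4.1e-04) with IOX1. Against NC alone it was -1.54 (limma adjusted p = 0.014) with Chaetocin and -1.58 (limma adjusted p = 0.0051) with IOX1. Between the compounds the difference was 0.04 ± 0.21 (SE). Tns1 lies on chromosome 1 from 73910231 to 74124449 on the minus strand of GRCm38. In the list of YAP, actin and focal adhesion genes, which holds Tns1, 2 of 31 members were called lower with Chaetocin (Tns1 and Fhl2), beside 0.55% of all genes tested, and 1 with IOX1 (Tns1), beside 1.07%.

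Several of the other shared genes that were lower read low in all 4 libraries and highest in DZNep or Valproate libraries. Dnmt3l, the cofactor of the de novo DNA methyltransferases, read 13 and 29 with Chaetocin, 4 and 17 with IOX1, and 9 and 40 in NC, while DZNep read 1487 and 612. Its log2 change against the 9 groups was -1.93 with Chaetocin and -3.04 with IOX1, and against NC alone they were 0.017 and -1.09, which were not called. Thy1, a surface glycoprotein, read 8 and 11 with Chaetocin, 7 and 12 with IOX1 and 12 and 11 in NC, with Valproate at 358 and 303. Ly6c1, a surface protein of the Ly6 family, read 9 and 7, then 8 and 6, with NC at 16 and 7 and DZNep at 247 and 183, and 57.1% of its 31-base words occur in other genes. In these 3 genes the 4 libraries overlapped the NC libraries.

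Klk8, a serine protease, read 22 and 20 with Chaetocin, 12 in both IOX1 libraries, and 46 and 33 in NC, and its log2 changes were -1.30 and -2.06. Hmx1, a homeobox gene, read 2 and 18 with Chaetocin, 2 and 23 with IOX1, and 28 and 31 in NC. Arhgdib read 5 and 15, then 4 and 12, with NC at 17 and 24. Magea2, an X-linked gene of the MAGE family, read 4 and 30, then 9 and 23, with NC at 25 and 38, and 66.2% of its 31-base words occur in other genes. Rhox5, an X-linked homeobox gene that DNA methylation silences, was among the 23 outside the 8 named by the rule. It was named after its values were seen because it kept both calls without the block, and it read 249 and 232 with Chaetocin, 287 and 339 with IOX1, and 345 and 344 in NC. Rhox5 read 3042 and 2446 with DZNep and 4970 and 2710 with Valproate. It was not called with both compounds against NC alone, or with DZNep, Valproate and Bromosporine left out of the reference.

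Of the 23 lower genes, Col1a1 and Thy1 are fibroblast markers, which feeder cells could add to a culture. The summed level of the 7 fibroblast markers tested was 99 and 161 in the Chaetocin libraries, 390 and 730 in the IOX1 libraries, and 745 and 1476 in the NC libraries. Lum was at 0 in all 6, Postn was at 0 in both Chaetocin libraries and in 1 IOX1 library, and Col3a1 read 2 and 4, then 3 and 622, with NC at 4 and 743. Against the 9 groups, 2 of the 7 were called lower with each compound, beside 0.55% of all genes tested for Chaetocin and 1.07% for IOX1. Between the compounds 0 of 7 were called, beside 0.289%. The part of such cells in the shared genes was not tested, and fewer cells of a type cannot be told apart from less RNA per cell. The 12 embryonic stem cell markers summed to 249908 to 273279 with Chaetocin, 262477 to 280522 with IOX1 and 246449 to 253226 in NC.

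Among the shared genes that were higher, Lefty1, a secreted antagonist of Nodal, read 1270 and 2321 with Chaetocin, 974 and 1407 with IOX1, and 669 and 1001 in NC. Its log2 changes were 2.08 and 1.53 against the 9 groups and 1.07 and 0.52 against NC alone, where neither was called, and within each replicate number both compounds read above NC.

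Pax6, a factor of eye and neural development, read 88 and 115 with Chaetocin, 77 and 173 with IOX1, and 48 and 52 in NC, with log2 changes of 1.49 and 1.69 against the 9 groups and of 1.00 and 1.19 against NC alone, which were not called. All 4 libraries lay above both NC libraries, and the highest of the 18 reference libraries was 86. Dnajc22, a gene of the DnaJ chaperone family, read 137 and 131 with Chaetocin, 113 and 143 with IOX1 and 97 and 111 in NC, with log2 changes of 1.19 and 1.12 against the 9 groups and of 0.37 and 0.29 against NC alone, which were not called. Kirrel2, a cell adhesion gene, read 1595 and 1405 with Chaetocin, 1448 and 1630 with IOX1 and 1798 and 1449 in NC. Its log2 changes were 1.12 and 1.16 against the 9 groups and -0.11 and -0.071 against NC alone, and the Bromosporine, DZNep and Valproate libraries read 72 to 423.

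**Figure D5:**
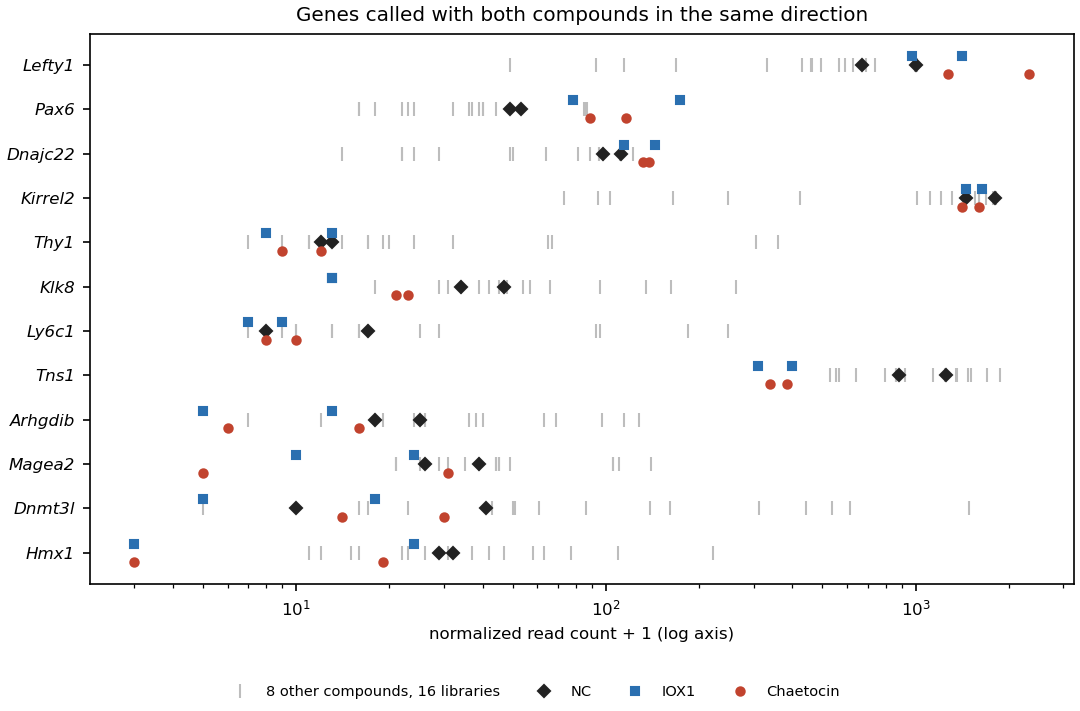
Normalized read count plus 1 (horizontal log axis) of 12 genes named for the shared direction, 4 higher (top) and 8 lower (bottom), in each library of Chaetocin (red circles), IOX1 (blue squares) and NC (black diamonds), with the 16 libraries of the 8 other compounds as grey ticks. Tns1 is the row where all circles and squares lie left of every diamond and tick, while for Kirrel2 and Thy1 they lie on or near the diamonds.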

How the data were processed

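Polyadenylated RNA of 22 libraries was sequenced, and groups and replicate numbers were read from the titles and treatment labels. The submitters' processing notes name bcl2fastq, Bowtie2 2.2.5, RSEM and the build mm10. The deposited values are a score, namely read counts that the authors normalized with the full-quantile setting of EDASeq and that are rounded to whole numbers. Which counting route gave the table was not stated, depth is unknown, and a shift of all genes would be removed by this normalization. A table of the authors' group means was not used.

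Of 18487 genes, the 17275 that reached 10 in 2 or more libraries were tested. Log2(value + 1) was fitted with limma 3.58.1 in R 4.3.3, with 11 group means, the replicate number as a block and a trend on mean expression, leaving 10 residual degrees of freedom. Tests are two-sided, with Benjamini-Hochberg adjustment over all genes tested. DESeq2, which the authors used, needs raw counts and was not run. The method was tested on simulated data.

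The members and lists were chosen with earlier results of these data known, and the lists were written from general knowledge. Named genes were called, above 0 in all 22 libraries, at a mean of at least 100 in at least 1 group compared (any of the 11 groups for the shared genes), and protein coding. For the direct comparison they also had no overlap between the compounds, a condition not applied to the shared genes. At most 12 per direction were taken by size for the direct comparison and at most 8 per direction for the shared genes, beside called list members and a set of single genes. Some genes that the rule picked are not reported here. Positions and shared 31-base words came from GENCODE M21, in which 18152 symbols (98.2%) were found. Figures were drawn with matplotlib 3.10.9.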

Additional observations from a re-analysis of the deposited data

How the results depend on the processing

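The replicate number was kept as a block because the comparison is defined with it. Deviations of the libraries numbered 2 from those numbered 1 had a correlation across genes of 0.261 between Chaetocin and IOX1, and of 0.0535 to 0.298 over the 55 pairs of groups, with 51 of 55 over 0.1. The labels do not say what the number marks. Without the replicate block, 10 genes were called between the compounds (5 and 5), 7 of the 19 named genes kept their call, and 4 genes were shared (1 higher, 3 lower). A pseudocount of 10 left 22 shared genes, 13 of them lower. With only the 4 libraries of the comparison, or the 6 with NC, 0 genes, 0 named genes and 0 list members were called, with 2665 and 2102 genes at an unadjusted p under 0.05. Leaving out 1 library gave 17 to 47 direct calls (8 to 34 higher with Chaetocin, 7 to 13 with IOX1), 4 to 8 of the 19 named genes, 1 to 2 of the 3 called list members, and 7 to 20 shared genes (0 to 8 higher, 6 to 14 lower). With NC alone as the reference 10 genes were shared (7 higher, 3 lower), and with the 6 groups other than DZNep, Valproate and Bromosporine 5 were (2 higher, 3 lower). The filter on low values, median-ratio rescaling and robust moderation left every count within 1.5 times.

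Signs changed for differences near 0. Over the models that leave out 1 library, Chaetocin minus IOX1 ran from -0.16 to 0.028 for Hmox1, -0.034 to 0.062 for Kdm4c, -0.21 to 0.10 for Nanog, -0.17 to 0.0063 for Pou5f1, -0.38 to 0.018 for Slc7a11, -0.17 to 0.25 for Tns1 and -0.019 to 0.11 for Vegfa. With NC alone as the reference, Dnmt3l with Chaetocin became 0.017 and Kirrel2 became -0.11 with Chaetocin and -0.071 with IOX1. The cause was not tested. With 2 libraries per group and no depth, a gene that was not called is not shown to be equal between the compounds.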
